A study of Mus musculus with 12 samples.

Results

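TASOR is the scaffold subunit of the human silencing hub (HUSH), a chromatin complex of TASOR, MPP8 and periphilin. MPP8 binds histone H3 methylated at lysine 9 and periphilin binds RNA. The complex brings the methyltransferase SETDB1 and the ATPase MORC2 to transcribed DNA, and it is known for silencing retroelements, retrocopied genes and other intron-poor or foreign transcription units. The comparison here was between mouse embryonic stem cells labelled Tasor-null (Tas) and wild-type cells (WT). All cells were of the C57BL/6 strain, no treatment was labelled, and cells labelled null for Mphosph8 (MP8) or Pphln1 (Pph) served only to show where Tas differed from the other 2 null genotypes. Total RNA of 3 libraries per genotype was sequenced, so 6 of the 12 libraries entered the comparison directly. The labels do not say how the null alleles were made, whether each genotype is 1 clone, whether the 3 libraries came from separate cultures, or which medium and feeder cells were used. The p-values therefore measure only the spread between these libraries, which may be technical.

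The estimated counts per library summed to between 18898952 and 21112986 in Tas and between 20392235 and 21962079 in WT. Levels are given in CPM, read counts scaled to the size of the library, and changes as the log2 fold change of Tas over WT ± its standard error. A gene was called when its adjusted p was under 0.05 in edgeR's quasi-likelihood test. Of 57180 listed genes, 16840 were tested and 8717 (51.8%) were called, 4415 (26.2%) higher and 4302 (25.5%) lower in Tas. By 2-fold or more, 1110 genes (6.59%) were higher and 610 (3.62%) were lower. The median log2 fold change over all tested genes was -0.01, with quartiles of -0.25 and 0.27. The 3 Tas and 3 WT libraries did not overlap in 9783 genes (58.1%), with Tas above in 4911 (29.2%) and below in 4872 (28.9%). The libraries of a genotype varied little (biological coefficient of variation 0.0419 in common), so that small differences were called.

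Tasor itself (ENSMUSG00000040651, GRCm38 chr14:27428834-27483555, plus strand) was measured at 30.7, 31.8 and 33.1 CPM in the Tas libraries, against 125, 130 and 125 CPM in the WT libraries. All Tas libraries were below all WT libraries, and transcript reads remained in each of them. Its level fell by 1.99 ± 0.05 on the log2 scale (adjusted p = 8.0e-24). Tasor was at 160 CPM in MP8 and 186 CPM in Pph, above the WT libraries, so the libraries labelled Tas alone were below WT.

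All 10 tested members of the list of HUSH subunits and partners were called, 8 higher and 2 lower, with a median of 0.21. Of the 8, 5 lay outside chromosomes 6, 8, 16 and 19, which were shifted over long stretches as described further on. The 7 tested members outside these chromosomes had a median of 0.11. Resf1, which encodes a factor of retroelement silencing, was at 301, 290 and 310 CPM in Tas and 165, 177 and 170 CPM in WT, a rise of 0.81 ± 0.04. No other member of the list rose by more, and Resf1 lies on chromosome 6. Atf7ip2, a relative of the SETDB1 partner ATF7IP, rose by 0.71 ± 0.06 to 57.2 ± 2.92 CPM in Tas, against 35.1 ± 0.852 CPM in WT (SD, n = 3 each). Atf7ip and the TASOR relative Tasor2 each rose by 0.38 ± 0.04, and Morc2a rose by 0.29 ± 0.03. The changes of the methyltransferase gene and of the other core subunits were small. Setdb1 rose by 0.11 ± 0.03, Mphosph8 fell by 0.22 ± 0.06, and Pphln1 was 0.13 ± 0.05 higher. Pphln1 lost its call in DESeq2, without Tas replicate 2, without WT replicate 1 and without WT replicate 2. Trim28, the corepressor of KRAB zinc finger proteins, averaged 1874 CPM in Tas and 1770 CPM in WT, and its rise of 0.08 ± 0.03 lost its call without Tas replicate 2. Morc2b was listed but too low to be tested.

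The Xlr genes, a multicopy family on the X chromosome related to the synaptonemal complex protein SYCP3, rose together. Of 15 listed members 9 were tested. All 9 were called higher by 2-fold or more, beside 6.59% of all tested genes, with a median log2 fold change of 5.72. The untested members stayed at or under 0.047 CPM in the Tas and WT libraries. A member near 0 in WT could pass the filter on low counts only through a null genotype in which it was higher. The count therefore describes the tested genes and not the family. The 9 tested genes lie within one cluster on the X chromosome. The regions around the start sites of 3 of them are shown because the subfamilies rose together although these regions differ. The sequences are RefSeq reference sequence (GRCm38.p6), 250 bases before to 50 bases after the annotated start, read 5′ to 3′ on the gene's strand, with CG dinucleotides in capitals.
Xlr3c, chrX:73265341-73265640, minus strand: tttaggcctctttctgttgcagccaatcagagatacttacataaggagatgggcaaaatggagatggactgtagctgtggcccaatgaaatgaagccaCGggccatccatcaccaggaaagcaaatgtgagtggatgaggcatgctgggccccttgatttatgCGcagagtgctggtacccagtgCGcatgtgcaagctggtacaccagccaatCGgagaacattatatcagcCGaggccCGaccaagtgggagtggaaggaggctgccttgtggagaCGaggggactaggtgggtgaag
Xlr4b, chrX:73214083-73214382, plus strand: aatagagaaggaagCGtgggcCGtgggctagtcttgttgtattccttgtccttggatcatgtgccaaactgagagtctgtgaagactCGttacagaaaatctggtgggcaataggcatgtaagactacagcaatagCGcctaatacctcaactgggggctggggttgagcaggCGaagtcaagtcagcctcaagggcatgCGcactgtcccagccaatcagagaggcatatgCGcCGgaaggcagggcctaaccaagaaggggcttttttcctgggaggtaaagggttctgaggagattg
Xlr5c, chrX:73290466-73290765, minus strand: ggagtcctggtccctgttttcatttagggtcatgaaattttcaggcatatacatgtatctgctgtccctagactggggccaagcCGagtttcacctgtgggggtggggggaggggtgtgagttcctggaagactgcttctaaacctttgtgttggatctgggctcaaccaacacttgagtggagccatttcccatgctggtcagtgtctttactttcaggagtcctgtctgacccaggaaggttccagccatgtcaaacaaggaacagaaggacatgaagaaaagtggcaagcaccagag
In global alignments of these regions, identity was 69.7% to 89.0% among the 3 Xlr3 genes and 88.3% to 96.0% among the 3 Xlr4 genes. It was 44.3% to 85.0% among the 3 Xlr5 genes and 39.0% to 48.7% between subfamilies. The 44.3% is that of Xlr5c against Xlr5a and against Xlr5b. The Xlr5c region lies inside the gene as the GENCODE annotation places it (GRCm38 chrX:73282896-73292976). Its identities and CG count may therefore not be those of the gene's first start site. The 9 regions held 1 to 16 CG dinucleotides, beside a median of 7 (quartiles 3 and 20) over 32851 such regions of RefSeq. Xlr5c held the 1, and Xlr5a and Xlr5b held 16 each. The E-box CACGTG, which reads the same on both strands and was searched because it is a common promoter motif, was in 0 of the 9 regions and in 7.15% of all regions.

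The Xlr genes differed in how low they were in WT. Xlr3c was at 81.3, 77.0 and 73.2 CPM in the Tas libraries, against 0.368, 0.595 and 0.706 CPM in the WT libraries, a rise of 7.10 ± 0.12 (adjusted p = 4.6e-27). Xlr3a averaged 35.8 ± 3.36 CPM in Tas and 1.07 ± 0.0731 CPM in WT, and Xlr3b averaged 52.6 ± 0.88 CPM in Tas and 2.20 ± 0.117 CPM in WT. Xlr5a averaged 36.4 ± 3.09 CPM in Tas and 2.45 ± 0.475 CPM in WT. Those 4 genes were measured in every library of both groups, and no Tas library overlapped a WT library. Xlr5c was at 12, 13 and 11.7 CPM in Tas and at 0, 0.0496 and 0 CPM in WT, which is 727 counts in Tas against 1 count in WT. The ratio of its summed CPM was 772, with an exact 95% counting interval of 138 to 30550. Xlr4b had 238 counts in Tas and 2 in WT (ratio 126, interval 34.6 to 1050). Xlr5b had 117 counts in Tas and 1 in WT (ratio 124, interval 21.9 to 4951). Xlr4a and Xlr4c were at 2.81 ± 0.84 and 2.47 ± 0.214 CPM in Tas, and at 0.0467 ± 0.047 and 0.0632 ± 0.0268 CPM in WT. These 5 genes were at or under the floor of 3 counts in every WT library. The Xlr genes are related copies, and how the authors' counting shared reads among them is not given in the sources used here, so the levels of single members are uncertain.

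**Figure D1:**
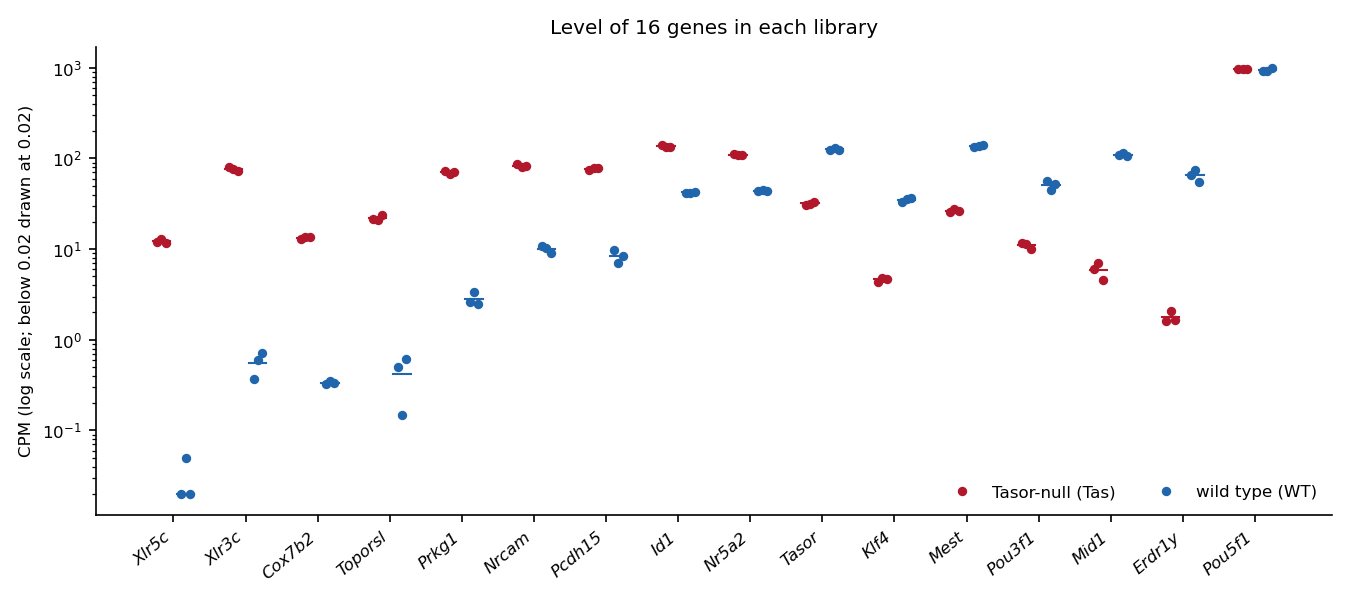
Level of 16 genes in each Tas library (red, left of each pair) and each WT library (blue, right), in CPM on a log axis, with lines at the group means and values under 0.02 CPM drawn at 0.02. The 3 libraries of a genotype lie close together, and only Pou5f1 among these genes has Tas and WT libraries that overlap.

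A single noncoding transcript gained more CPM than any other tested gene. Gm43549, a long noncoding RNA on chromosome 3, was picked after its values were seen because it stood apart in the plot of change against level. It was at 1100, 1115 and 1114 CPM in the Tas libraries, against 3.31, 3.47 and 3.90 CPM in the WT libraries. The rise was 8.28 ± 0.05 on the log2 scale (adjusted p = 1.1e-39), and the Tas libraries lay far above every WT library. The annotation gives it 2 exons of 161 and 2500 bases at GRCm38 chr3:55578105-55582730, minus strand, between Dclk1 and Nbea. The nearest tested genes did not share its rise. Dclk1, 39.0 kb away, fell by 1.05 ± 0.31, and Nbea, 42.5 kb away, was at 23.6 ± 0.915 CPM in Tas and 23.8 ± 1.31 CPM in WT and was not called. Sohlh2, a germ cell transcription factor gene 368 kb away, rose by 0.93 ± 0.10. Gm43549 was at 1212 CPM in MP8 and 54.8 CPM in Pph. The Tas level was 0.13 lower than in MP8 and 4.34 higher than in Pph on the log2 scale, and both differences were called. Gm38947, another long noncoding RNA picked the same way (GRCm38 chr7:13192117-13197215, minus strand), was at 31.2, 34.2 and 31.7 CPM in Tas and 0.597, 0.644 and 0.470 CPM in WT.

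Among coding genes with known names, the largest rises outside the Xlr family were of genes with restricted expression. Cox7b2, a testis-enriched relative of the respiratory chain subunit gene Cox7b, was at 12.9, 13.5 and 13.5 CPM in Tas and 0.322, 0.347 and 0.329 CPM in WT. It rose by 5.30 ± 0.17, whereas Cox7b fell by 0.15 ± 0.05, a call lost without Tas replicate 1, Tas replicate 3 or WT replicate 1. The region around the start of Cox7b2 is shown as that of a strongly raised coding gene outside the Xlr cluster, and it has 10 CG dinucleotides, again in capitals.
Cox7b2, chr5:71548156-71548455, minus strand: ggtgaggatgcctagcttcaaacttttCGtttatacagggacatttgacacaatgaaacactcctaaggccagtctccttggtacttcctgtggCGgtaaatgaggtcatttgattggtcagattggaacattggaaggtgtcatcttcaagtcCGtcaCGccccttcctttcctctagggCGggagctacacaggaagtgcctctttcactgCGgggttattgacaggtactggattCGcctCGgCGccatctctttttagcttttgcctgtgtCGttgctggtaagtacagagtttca
Toporsl, a relative of the ubiquitin ligase gene Topors, was at 21.4, 20.9 and 23.8 CPM in Tas and 0.505, 0.149 and 0.612 CPM in WT, a rise of 5.67 ± 0.17. Topors was at 147 ± 4.64 CPM in Tas and 143 ± 1.6 CPM in WT and was not called. Rhoj, a small GTPase gene known from endothelium, rose by 4.64 ± 0.14 to 19.06 ± 1.18 CPM in Tas, against 0.757 ± 0.141 CPM in WT. Prkg1, the gene of cGMP-dependent protein kinase 1, was at 72.0, 67.9 and 70.5 CPM in Tas and 2.62, 3.37 and 2.49 CPM in WT, a rise of 4.63 ± 0.08, and lies on chromosome 19. Cd36, a fatty acid scavenger receptor gene, was at 37.7, 37.4 and 40.1 CPM in Tas and 1.65, 2.68 and 1.22 CPM in WT, a rise of 4.38 ± 0.18. In each of these genes all Tas libraries lay above all WT libraries. Eef1ece2 passed the test with 0.379, 3.09 and 2.19 CPM in Tas and 0, 0.149 and 0 CPM in WT, but its Tas libraries were uneven and it lost its call without Tas replicate 2, without Tas replicate 3, without any 1 of the WT libraries, with a replicate block and without the filter on low counts. Counted over all genes, 18 reached 1 CPM in Tas while holding at most 3 counts in each WT library, 11 of them predicted gene models, and 4 showed the opposite.

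**Figure D2:**
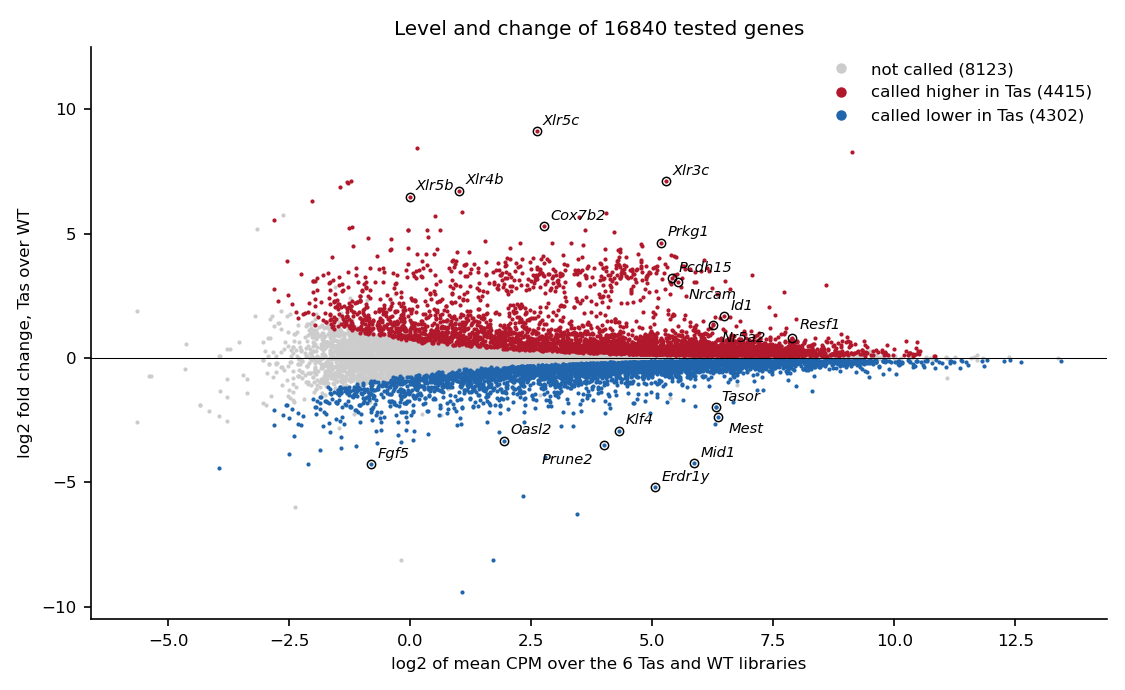
Log2 fold change of Tas over WT (y axis) against the log2 of the mean CPM over the 6 libraries (x axis) for 16840 tested genes, with 4415 called higher in red, 4302 called lower in blue and 8123 not called in grey. Most called genes lie close to 0, a band of rises lies between 2 and 5 at all but the highest levels, and the red point at the upper right is Gm43549.

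Genes that span long stretches of the genome rose by 2-fold or more far more often than short ones. Coding genes were grouped by their annotated span, a grouping chosen after the data were seen. Of 800 genes of 200 kb or more, 173 (21.6%) were called higher by 2-fold or more. The shares were 3.96% of 3336 genes of 50 to 200 kb, 2.55% of 6777 genes of 10 to 50 kb and 2.81% of 3451 genes under 10 kb. At 5 CPM or more the shares were 20.4% of 496 long genes and 2.90%, 1.28% and 0.961% in the 3 shorter classes. This level is the mean over both genotypes, so a gene can enter the class through its own rise. Falls of 2-fold or more were also more frequent, at 6.25% of the long genes and 3.14% to 4.26% in the shorter classes. These shares are descriptions of 1 comparison and carry no test of the difference between classes.

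Long genes named here include adhesion molecule genes. Pcdh15, which encodes a protocadherin of the hair cell tip link, spans 1550 kb and was at 74.2, 77.9 and 78.4 CPM in Tas and 9.69, 6.94 and 8.33 CPM in WT, a rise of 3.20 ± 0.08. Nrcam, a neuronal adhesion molecule gene of 273 kb, was at 87.3, 80.1 and 81.7 CPM in Tas and 10.8, 10.2 and 9.08 CPM in WT, a rise of 3.05 ± 0.06. The Tas libraries of both genes were separate from and above the WT libraries. Of 23 tested cadherins and nonclustered protocadherins, 9 were called higher and 4 lower. In all 56.5% were called, beside 51.8% of all tested genes, and 7 of the rises were 2-fold or more. Cdh18 rose by 3.81 ± 0.42, Pcdh7 by 3.76 ± 0.43 and Cdh12 by 2.93 ± 0.14, while Cdh2, the N-cadherin gene, fell by 0.67 on the log2 scale. Cdh1, the E-cadherin gene of embryonic stem cells, was at 480 ± 1.54 CPM in Tas and 475 ± 10.7 CPM in WT and was not called. The clustered protocadherins, whose isoforms share exons, had 10 of 31 called higher and 3 called lower. In all 41.9% of them were called, below the 51.8% of all tested genes. Pcdha6 rose by 4.63 ± 0.33 to 9.18 ± 0.495 CPM in Tas, against 0.372 ± 0.399 CPM in WT, and Pcdhgb4 rose by 1.96 ± 0.29. Pcdhgb1 went the other way, with 2 counts in Tas and 33 in WT.

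Ion channel and neurotransmitter receptor genes were called in both directions at shares near the background, 35 of 127 higher and 29 lower, but 23 of the rises and 7 of the falls were 2-fold or more. Kcnj3, a G protein-gated potassium channel gene, was at 6.93, 8.09 and 8.45 CPM in Tas and 0.413, 0.496 and 0.565 CPM in WT, a rise of 3.98 ± 0.20. Kcnc2, a voltage-gated potassium channel gene, rose by 3.89 ± 0.18, the glutamate receptor gene Grid1 by 3.82 ± 0.23 and the sodium channel gene Scn10a by 3.74 ± 0.26. In all 4 the Tas libraries lay above the WT libraries. Of 265 tested solute carrier genes, 66 were called higher and 62 lower, 48.3% in all, beside 51.8% of all tested genes. Slc8a1, the sodium and calcium exchanger gene, rose by 3.44 ± 0.08 to 50.3 ± 4.88 CPM in Tas, against 4.64 ± 0.415 CPM in WT, and Slc1a6, a glutamate transporter gene, rose by 3.29 ± 0.13. Slc15a2, a peptide transporter gene, had 3 counts in Tas and 44 in WT. Matrix and integrin genes were mixed. Lama2, a laminin gene of muscle, rose by 2.66 ± 0.23 and Itgbl1 by 2.75 ± 0.18, while Itga1 fell by 2.21 ± 0.32. Of 23 integrins, 6 were called higher and 7 lower, 56.5% in all. The lower count was 4 without Tas replicate 1 and 4 without WT replicate 2. Of 36 collagens, 7 were called higher, 4 of them outside the 4 shifted chromosomes, and 12 lower, 52.8% in all. Both shares are near the 51.8% of all tested genes.

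**Figure D3:**
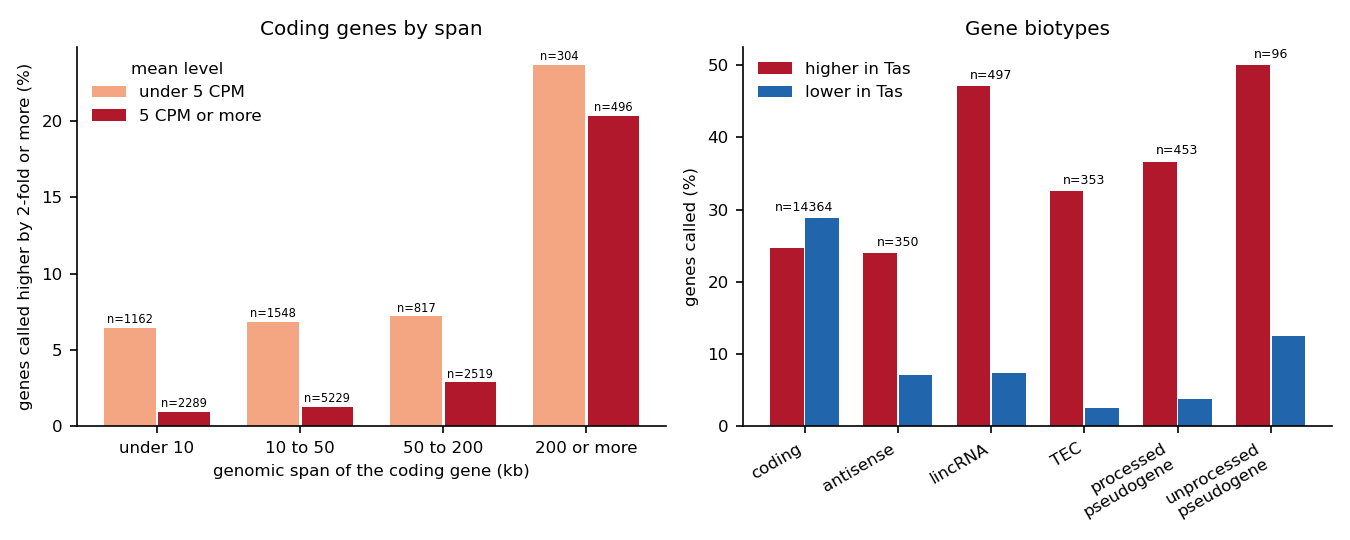
Left, share of coding genes called higher in Tas by 2-fold or more (y axis, %) by annotated genomic span in kb (x axis), split at a mean of 5 CPM, with the number of genes above each bar. Right, share of genes called higher (red) and lower (blue) in Tas by annotated biotype. At 5 CPM or more, 20.4% of coding genes of 200 kb or more rose by 2-fold or more. Over all levels, 47.1% of lincRNAs were called higher, whatever the fold.

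Noncoding genes and pseudogenes rose more often than they fell. Of 497 tested genes annotated as lincRNA, 47.1% were called higher and 7.44% lower, beside 24.7% higher and 28.8% lower among 14364 coding genes. Processed pseudogenes, which are retrocopies of messenger RNA, were called higher in 36.6% and lower in 3.75% of 453 cases. Unprocessed pseudogenes were called higher in 50% of 96 and antisense genes in 24.0% of 350. At 5 CPM or more the same split was seen, with 71.2% of 153 lincRNAs, 49.6% of 127 processed pseudogenes and 28.3% of 10533 coding genes called higher. The level is the mean over both genotypes, so a rise in Tas can lift a gene into this class. A gene low in WT also passes the filter on low counts more easily when it is higher in a null genotype. The shares therefore describe the tested genes only. The sources used here do not say whether counting used strand, so reads of an antisense gene and of its partner cannot be told apart, and reads of a pseudogene and of its parent may be shared.

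Coding genes with 1 exon, the kind of unit for which HUSH is best known, moved in both directions. Over all levels, 8.36% of 359 such genes were higher and 8.91% lower by 2-fold or more. The shares were 3.88% and 3.21% of 6882 genes with 10 or more exons. At 5 CPM or more, 7.95% of 151 single-exon genes were higher by 2-fold or more, against 2.65% of 5466 genes with 10 or more exons. In the same class 4.64% were lower by 2-fold or more, against 1.17%. Genes whose longest exon was 4000 bases or more were called higher in 33.3% and lower in 23.5% of 1996 cases. Genes whose longest exon was under 1000 bases were called higher in 19.3% and lower in 32.6% of 3322 cases. The germline retrocopies, intronless coding copies of housekeeping genes expressed in testis, had 5 of 9 tested members called higher and 1 called lower. D1Pas1, a copy of the RNA helicase gene Ddx3x, was at 106, 104.6 and 107 CPM in Tas and 12.4, 13.2 and 12.7 CPM in WT, a rise of 3.05 ± 0.05. Rpl10l, a copy of Rpl10, was at 49.5, 54.8 and 53.8 CPM in Tas and 8.87, 7.53 and 8.75 CPM in WT, a rise of 2.65 ± 0.08. Both copies were higher in every Tas library. Pabpc6 rose by 1.34 ± 0.40 and Rbmxl2 fell by 0.52 ± 0.06. Cstf2t and Rbmxl1 rose by 0.45 ± 0.04 and 0.38 ± 0.03 and lie on the raised chromosomes 19 and 8. Without Tas replicate 1, 2 of the 9 were called lower. The parent genes were not higher, with 0 of 10 called higher and 4 lower. Ddx3x averaged 1090 CPM in Tas and 1138 CPM in WT, and Rpl10 averaged 437 ± 17.8 CPM in Tas and 451 ± 30.9 CPM in WT, with neither called. Copies and parents share sequence, so part of the reads may be uncertain between them.

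Olfactory receptor genes, intronless in their coding part and silent outside sensory neurons in most tissues, were mostly higher where they could be tested. Of 1155 listed, 37 had enough counts to be tested, and 26 of these were called higher, 20 of them by 2-fold or more, with 1 called lower, which was lost without WT replicate 3, and a median of 1.17. Since a gene this low passes the filter mainly through the group in which it is higher, the count describes the tested genes and not the family. Or6c208 was at 9.36, 10.5 and 8.84 CPM in Tas and 1.29, 1.54 and 1.32 CPM in WT, a rise of 2.79 ± 0.20. Or13a18 rose by 2.38 ± 0.29 to 2.24 ± 0.371 CPM in Tas, against 0.428 ± 0.0875 CPM in WT. Or8b56 had 49 counts in Tas and 1 in WT (ratio 52.1, interval 8.92 to 2098). The X-linked Mage genes did not move as the Xlr genes did, with 3 of 10 called higher and 2 lower. In all 50% of them were called, near the share of all tested genes. Mageb18, within a span of 481 kb, rose by 2.90 ± 0.21. The germline and meiosis list held 12 of 38 members called higher and 7 lower, 50% in all, beside 51.8% of all tested genes. Piwil2, a Piwi protein gene of the germline, rose by 0.99 ± 0.05 to 58.8 ± 1.97 CPM in Tas, against 29.7 ± 0.941 CPM in WT. The meiotic axis genes Sycp2 and Hormad2 fell, with log2 fold changes of -2.17 ± 0.42 and -1.80 ± 0.23, and the germ cell RNA-binding protein gene Dazl fell by 1.54 ± 0.32.

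The deepest falls included a group of genes at the pseudoautosomal region, which pairs the X and Y chromosomes. Mid1, a ubiquitin ligase gene that crosses the boundary of this region in C57BL/6 (GRCm38 chrX:169685199-170005736, plus strand), was at 6.06, 6.96 and 4.52 CPM in Tas, against 110, 113 and 108 CPM in WT. Its level fell by 4.24 ± 0.08 (adjusted p = 5.1e-23). Erdr1y, the listed Y copy of Erdr1, was at 1.62, 2.06 and 1.65 CPM in Tas and 65.2, 75 and 55 CPM in WT, and fell by 5.18 ± 0.16. Erdr1x fell by 2.98 ± 0.19. Mid1-ps1, a Y-linked pseudogene of Mid1 picked after its values were seen, averaged 0.271 ± 0.0668 CPM in Tas and 21.4 ± 2.22 CPM in WT, a log2 fold change of -6.28 ± 0.24. All 3 Tas libraries were below all WT libraries in each of the 4. Mid1 was at 85.0 CPM in MP8 and 109 CPM in Pph, and Erdr1y was at 56.2 CPM in MP8 and 77.7 CPM in Pph, so the other null genotypes kept levels near WT. Reads of the X and Y copies cannot be told apart with certainty, and DNA at this region was not tested. Other Y-linked genes were not lower as a group. Ddx3y rose by 0.45 ± 0.05, Kdm5d by 0.95 ± 0.08, Uty by 0.46 ± 0.06 and Eif2s3y by 0.26 ± 0.05, while Zfy1 fell by 2.05 ± 0.25 to 0.663 ± 0.178 CPM in Tas, against 2.75 ± 0.379 CPM in WT. Xist, the noncoding RNA of X inactivation, rose by 1.85 ± 0.14 to 8.23 ± 0.521 CPM in Tas, against 2.30 ± 0.657 CPM in WT. Its antisense partner Tsix rose by 1.76 ± 0.17, and reads of the 2 cannot be told apart.

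Deep falls were also seen outside that region. Prune2 was at 2.71, 2.55 and 2.48 CPM in Tas and 31.2, 30.2 and 26.5 CPM in WT, and fell by 3.51 ± 0.10. Ankrd36 fell by 3.99 ± 0.16 to 0.805 ± 0.148 CPM in Tas, against 12.9 ± 0.89 CPM in WT. Kdr, the VEGF receptor gene, fell by 2.20 ± 0.09, and it was the only call among 10 tested mesendoderm genes, with 2 called lower without Tas replicate 3. Exosc6, an intronless gene of the RNA exosome, had 0 counts in each Tas library and 5.19, 1.98 and 5.46 CPM in WT, at least 27.8-fold lower in Tas against a floor of 3 counts per library. Its WT libraries were uneven, its call was lost without WT replicate 1, without WT replicate 3 and without the filter on low counts, and it was also at 0 in Pph. The other members of the list of RNA exosome and NEXT (nuclear exosome targeting) genes changed by less than 1 on the log2 scale. Of 18 tested, 2 were called higher and 9 lower including Exosc6. Outside the shifted chromosomes 6, 8, 16 and 19, 0 of 14 were called higher and 7 lower. Tent4b rose by 0.80 ± 0.04 and Exosc9 fell by 0.33 ± 0.04.

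Imprinted genes were called lower more often than higher, 17 against 7 of 40 tested, 60% in all, beside 51.8% of all tested genes. Mest, a paternally expressed hydrolase gene, was at 25.8, 27.9 and 26.2 CPM in Tas and 133, 138 and 141 CPM in WT, and fell by 2.37 ± 0.05. Peg10, a paternally expressed gene derived from a retrotransposon, was at 176, 180 and 180 CPM in Tas and 432, 479 and 438 CPM in WT, and fell by 1.33 ± 0.03. Both were lower in every Tas library, and both lie on chromosome 6 with Asb4, which fell by 3.42 ± 0.47 to 0.0996 ± 0.0836 CPM in Tas, against 1.14 ± 0.0563 CPM in WT. Asb4 was 1 of 4 neighbouring genes that fell by 2-fold or more in a row, with Pon3, Pon2 and Pdk4, of which Pon3 lost its call in DESeq2 and without Tas replicate 2 or WT replicate 2. H19, a maternally expressed noncoding RNA, rose by 2.28 ± 0.33 to 1.78 ± 0.0166 CPM in Tas, against 0.360 ± 0.166 CPM in WT, and its neighbour Igf2 fell by 0.62 ± 0.05. Magel2 fell by 1.49 ± 0.19.

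Several naive and formative pluripotency genes fell, while the general factors changed by less. Of 18 core pluripotency and Dppa genes, 10 were called higher and 5 lower, with a median of 0.09. Outside the shifted chromosomes, 7 of 13 were called higher and 3 lower. In these bulk samples, fewer cells of a type and less RNA per cell cannot be told apart. Pou5f1, the OCT4 gene, was at 960, 966 and 964 CPM in Tas and 932, 918 and 987 CPM in WT and was not called, and the groups overlapped. Sox2 fell by 0.21 ± 0.03 and Nanog fell by 0.27 ± 0.04. Klf4, a transcription factor gene of the naive state that answers to LIF, was at 4.33, 4.85 and 4.71 CPM in Tas and 33.3, 36.1 and 36.2 CPM in WT, and fell by 2.92 ± 0.10 (adjusted p = 7.5e-21). All Tas libraries were far below the WT libraries. Of 22 naive genes, 13 were called lower and 5 higher, 3 of the 5 outside the shifted chromosomes. Tbx3 fell by 1.88 ± 0.17, Dppa3 fell by 1.42 ± 0.07, Klf5 fell by 0.79 ± 0.05, Tfcp2l1 fell by 0.74 ± 0.04 and Esrrb fell by 0.48 ± 0.03. The rises of this list included nuclear receptor and zinc finger genes. Nr5a2 was at 111, 109 and 109 CPM in Tas and 43.2, 44.9 and 43.2 CPM in WT, a rise of 1.32 ± 0.04. Klf2 rose by 0.51 ± 0.04 and Zfp42, the REX1 gene, by 0.63 ± 0.04, and both lie on chromosome 8, where most genes rose. Fgf4 and Prdm14 were not called. Of the same 22 genes, 16 were called higher and 5 lower in Tas than in MP8, and 13 higher and 5 lower in Tas than in Pph.

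Formative genes were lower. Of 19 tested genes of formative or primed pluripotency, 13 were called lower and 4 higher, with a median of -0.44. Pou3f1, the OCT6 gene, was at 11.5, 11.4 and 10.1 CPM in Tas and 57.0, 45.1 and 51.8 CPM in WT, and fell by 2.23 ± 0.08. Fgf5 had 3 counts in Tas and 69 in WT, with WT 21.7 times as high by summed CPM (interval 7.11 to 108). Lef1 fell by 1.95 ± 0.12 and Otx2 fell by 0.52 ± 0.09. Of the de novo methyltransferase genes, Dnmt3b fell by 0.76 ± 0.03 to 529 ± 0.653 CPM in Tas, against 896 ± 12.9 CPM in WT, and Dnmt3a fell by 0.46 ± 0.03. Nodal, Sox3 and Sall2 were higher, by 0.57 ± 0.04, 0.60 and 0.83 ± 0.07 on the log2 scale.

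Genes of several signalling pathways changed, in both directions. Id1, a target of BMP signalling, was at 139, 134 and 135 CPM in Tas and 42.0, 41.9 and 42.7 CPM in WT, a rise of 1.69 ± 0.04, and all Tas libraries were above all WT libraries. The other Id genes did not rise, since Id2 was not called and Id3 fell by 0.25 ± 0.07, and the ligand gene Bmp4 fell by 1.11 ± 0.13. In the Nodal and activin list, 11 of 20 were called higher, 9 of them outside the shifted chromosomes, and 4 lower. Gdf3 rose by 0.63 ± 0.04 and Lefty2 by 0.29 ± 0.03, while Lefty1 fell by 0.41 ± 0.04 and the inhibin gene Inhbb fell by 1.58 ± 0.24. Wnt genes and targets were called at shares under the background, 6 of 28 higher, 2 of them outside the shifted chromosomes, and 7 lower, but 5 of the falls were 2-fold or more. Axin2, a feedback target of the pathway, was at 1.57, 1.57 and 1.94 CPM in Tas and 5.33, 5.55 and 5.46 CPM in WT, and fell by 1.68 ± 0.18. Sp5 fell by 2.31 ± 0.29 and the ligand gene Wnt8a fell by 3.05 ± 0.36. In the FGF and ERK list, 7 of 25 were called higher, 4 of them outside the shifted chromosomes, and 13 lower. Fgfr1 rose by 0.96 ± 0.04, and the immediate early genes Fos and Egr1 fell, with log2 fold changes of -1.31 ± 0.24 and -0.56 ± 0.06. Spry1 fell by 1.11 ± 0.10 whereas Spry4 rose by 0.44 ± 0.04. In the LIF and STAT3 list, 4 of 18 were called higher and 9 lower, 72.2% in all, beside 51.8% of all tested genes. The feedback gene Socs3 fell by 0.43 ± 0.04. Pim2, a survival kinase gene picked after its values were seen, was at 21.2, 21.4 and 21.2 CPM in Tas and 137, 133 and 137 CPM in WT, and fell by 2.67 ± 0.04.

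**Figure D4:**
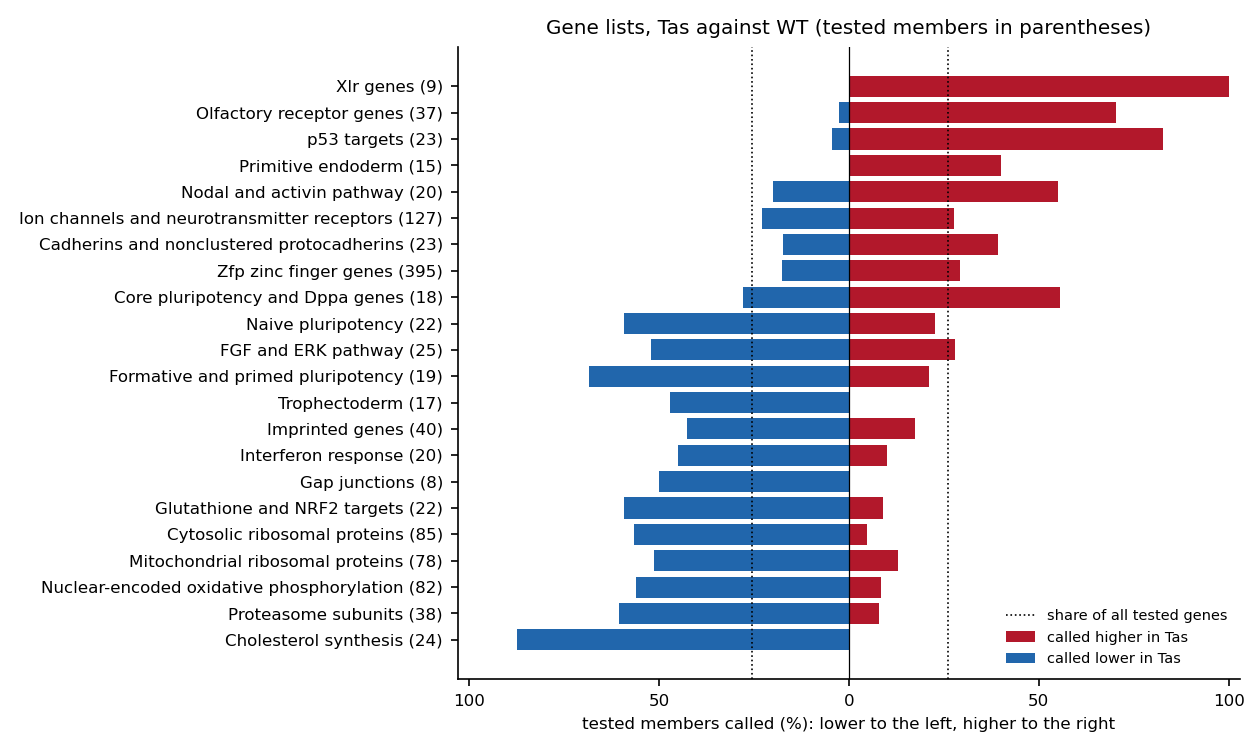
Share of the tested members of 22 gene lists called higher in Tas (red, to the right) and lower in Tas (blue, to the left), in %, with the number of tested members in parentheses and dotted lines at the shares over all tested genes, 26.2% higher and 25.5% lower. All 9 tested Xlr genes rose, 19 of 23 p53 targets rose, and 21 of 24 cholesterol synthesis genes fell.

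Cdx2, Gata4 and Gata6, taken here as defining genes of trophectoderm and primitive endoderm, were low in both genotypes, unlike other members of these lists. The trophectoderm list, whose members are mostly expressed in placenta, had 8 of 17 tested called lower and 0 called higher. Its defining gene Cdx2 was at 0.117 ± 0.073 CPM in Tas and 0.254 ± 0.0578 CPM in WT and was not called, while Tfap2c, also a naive factor gene, fell by 1.45 ± 0.07 and the keratin gene Krt7 fell by 1.98 ± 0.19. Summed over the list, the libraries held 127 to 133 CPM in Tas and 190 to 196 CPM in WT. The primitive endoderm list had 6 of 15 called higher and 0 lower, or 1 lower without WT replicate 3. Its defining genes Gata4, at 1.03 ± 0.292 CPM in Tas and 0.730 ± 0.218 CPM in WT, and Gata6, at 0.273 ± 0.118 CPM in Tas and 0.368 ± 0.161 CPM in WT, were not called. The risers included the matrix genes Nid1, by 0.71 ± 0.04, and Col4a1, by 0.71 ± 0.05. The receptor gene Pdgfra was also called higher. Its call was lost in DESeq2, without the filter on low counts, without Tas replicate 1 and without WT replicate 1. The summed level was 1472 to 1504 CPM in Tas and 1212 to 1297 CPM in WT.

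Of 14 neuroectoderm genes, 6 were called higher and 1 lower, and the lower count was 3 without Tas replicate 2 and 2 without Tas replicate 3. Pax6 rose by 1.18 ± 0.11 to 11.5 ± 0.664 CPM in Tas, against 5.10 ± 0.801 CPM in WT, Map2 rose by 0.96 ± 0.06 and Sox1 by 0.99 ± 0.28. Nes and Tubb3 were not called. Summed over the neuroectoderm list, the libraries held 740 to 745 CPM in Tas and 594 to 608 CPM in WT. In the fibroblast list, the feeder markers Col1a2 and Acta2 fell, with log2 fold changes of -2.57 ± 0.31 and -2.01 ± 0.25, both at under 1 CPM in Tas. The summed level of that list was nevertheless higher in Tas, 1700 to 1764 CPM, than in WT, 1255 to 1465 CPM, and it was carried by Vim and Fn1, which rose by 0.23 and 0.38 on the log2 scale and are also expressed by embryonic stem cells. Of the genes of the 2-cell-like state, 1 of 17 listed was tested, Zfp750, which rose by 0.75, and the untested ones stayed at or under 0.825 CPM. The list summed to 11.9 to 13.5 CPM in Tas and 5.60 to 6.49 CPM in WT. Epithelial adhesion genes were called lower in 12 and higher in 5 of 21 cases, 3 of the 5 outside the shifted chromosomes. The connexin gene Gjb5 had a log2 fold change of -1.63 ± 0.20.

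Genes of cholesterol synthesis fell together. Of 24 tested genes, 21 were called lower and 0 higher, with a median of -0.39. Insig1, a sterol sensor gene, was at 75.4, 78.9 and 73.9 CPM in Tas and 129, 130 and 134 CPM in WT, and fell by 0.78 ± 0.04. Fdps, a farnesyl diphosphate synthase gene, was at 111, 114 and 113 CPM in Tas and 172, 170 and 183 CPM in WT, and fell by 0.63 ± 0.04. Every Tas library was below every WT library in both. The exceptions Stard4, Msmo1 and Tm7sf2 were not called. The same genes were not uniformly low against the other null genotypes, with 8 higher and 7 lower in Tas than in MP8 and 2 higher and 17 lower in Tas than in Pph.

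Genes of energy metabolism and protein synthesis were lower by small amounts. Of 82 nuclear genes of oxidative phosphorylation, 46 were called lower and 7 higher, with a median of -0.18, and 6 of those 7 rises lay on chromosomes 6, 8, 16 or 19, the other being Cox7b2. Of the mitochondrial ribosomal protein genes, 40 of 78 were called lower and 10 higher (median -0.13), 1 of the 10 outside the shifted chromosomes. Of the cytosolic ribosomal protein genes, 48 of 85 were called lower and 4 higher (median -0.11). The lower count fell to 29 without WT replicate 3, and the higher count to 2 without WT replicate 2. Of 38 proteasome subunit genes, 23 were called lower and 3 higher (median -0.12). Glutathione and NRF2 target genes had 13 of 22 called lower and 2 higher, neither of the 2 outside the shifted chromosomes, and Gclm, a glutathione synthesis gene, fell by 0.45 ± 0.04. Hmox1 went against that list, with 180, 181 and 178 CPM in Tas and 111, 106 and 111 CPM in WT, a rise of 0.71 ± 0.04, and it lies in the raised stretch of chromosome 8. Of 27 glycolysis and hypoxia genes, 14 were called lower and 5 higher, 2 of the 5 outside the shifted chromosomes, with the glucose transporter gene Slc2a3, which fell by 0.73 ± 0.03.

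p53 target genes were higher. Of 23 tested, 19 were called higher and 1 lower, with a median of 0.31. Eda2r, a death receptor gene, was at 63.4, 59.9 and 65.0 CPM in Tas and 33.6, 35.8 and 33.4 CPM in WT, a rise of 0.87 ± 0.05. Ccng1 was at 278, 272 and 273 CPM in Tas and 190, 190 and 192 CPM in WT, a rise of 0.52 ± 0.03. Both genes were higher in every Tas library. Cdkn1a, the p21 gene, rose by 0.24 ± 0.06, and Mdm2, the feedback inhibitor gene, was at 108 ± 0.947 CPM in Tas and 106 ± 3.56 CPM in WT and was not called. The list was lower in Tas than in MP8, with 14 of 23 called lower and 2 higher. The cell cycle list had 13 of 36 called higher and 9 lower, 61.1% in all, beside 51.8% of all tested genes. The sign of its median, 0.00398, changed under another scaling.

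Interferon and antigen presentation genes were called lower more often than higher. Of 20 interferon response genes, 9 were lower and 2 higher, and 5 of the falls were 2-fold or more. The higher count was 1 without any of Tas replicates 1 and 2 and WT replicates 1 and 3. Oasl2 was at 0.541, 0.833 and 0.680 CPM in Tas and 6.89, 7.19 and 6.77 CPM in WT, and fell by 3.32 ± 0.19. Oas1a fell by 2.67 ± 0.25 and Ifih1, the gene of the RNA sensor MDA5, fell by 2.65 ± 0.56. The libraries of these 3 genes did not overlap between the genotypes. Of 18 antigen presentation genes, 9 were lower and 3 higher. The immunoproteasome gene Psmb8 fell by 2.68 ± 0.29 and Tapbp fell by 0.93 ± 0.10, while B2m rose by 0.48 ± 0.08.

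Chromatin regulators changed by less than 1 on the log2 scale, with few exceptions. In the DNA methylation list, 11 of 21 were called higher and 5 lower, counts that became 7 and 4 of 16 without the genes of chromosomes 6, 8, 16 and 19. Hells, a remodeller gene that supports DNA methylation, rose by 0.83 ± 0.04 and lies on chromosome 19. Dnmt3l, the cofactor gene of the de novo enzymes, was at 615, 636 and 630 CPM in Tas and 399, 405 and 400 CPM in WT, a rise of 0.64 ± 0.03. Dnmt1 and Uhrf1 rose by 0.17 ± 0.03 and 0.18 ± 0.03, and Gadd45a fell by 1.83 ± 0.08. In the list of H3K9 methylation genes, 9 of 21 were higher and 5 lower, 66.7% in all, beside 51.8% of all tested genes. The lower count was 2 without Tas replicate 2 and 3 without Tas replicate 3 or WT replicate 2. Wiz and Kdm3a each rose by 0.43 ± 0.03 and Cdyl fell by 0.61 ± 0.05. Of 30 Polycomb genes, 13 were higher and 7 lower, beside 26.2% higher and 25.5% lower over all tested genes. Without the genes of those 4 chromosomes, 8 and 7 of 24 were higher and lower. Bmi1 rose by 0.97 ± 0.16.

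Genes on 4 chromosomes were shifted between Tas and WT over long neighbouring stretches. Genes averaging 5 CPM or more were put in order along each chromosome in blocks of 40, a description chosen after the data were seen, which gave 265 blocks of 11018 genes. On chromosome 8, blocks 3 to 12, the stretch between Sfrp1 and Wwp2, held 400 genes with a median of 0.45, of which 81.2% were called higher. The first block of that chromosome had a median of -0.10 and the last 3 blocks had a median of -0.16. On chromosome 19 all 9 blocks were raised, with block medians of 0.19 to 0.36, and 68.9% of 373 genes were called higher. The distal part of chromosome 6, between Tatdn2 and Bicd1, had a median of 0.23 over 157 genes, whereas the rest of that chromosome had a median of -0.03. Chromosome 16 was split. Its first 6 blocks had a median of 0.19, and its last 2 blocks, between Dzip3 and A630089N07Rik, had a median of -0.30 over 108 genes. The other null genotypes shared the raised part of chromosome 16, with medians against WT of 0.21 in MP8 and 0.15 in Pph over the first 6 blocks, and over the last 2 blocks their medians were 0.29 in MP8 and 0.24 in Pph. They did not share the other raised stretches. Their medians against WT were -0.09 in MP8 and -0.04 in Pph over blocks 3 to 12 of chromosome 8, -0.12 in MP8 and -0.09 in Pph on chromosome 19, and -0.11 in MP8 and -0.04 in Pph on distal chromosome 6. Beyond 0.15 in either direction lay 44 blocks, and 33 of them were on these 4 chromosomes. DNA copy number was not tested. The counts of several lists above moved when the genes of these 4 chromosomes were set aside. With chromosomes 8 and 19 left out of the fit, 7686 of 15440 genes were called, against 8717 of 16840 with them.

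**Figure D5:**
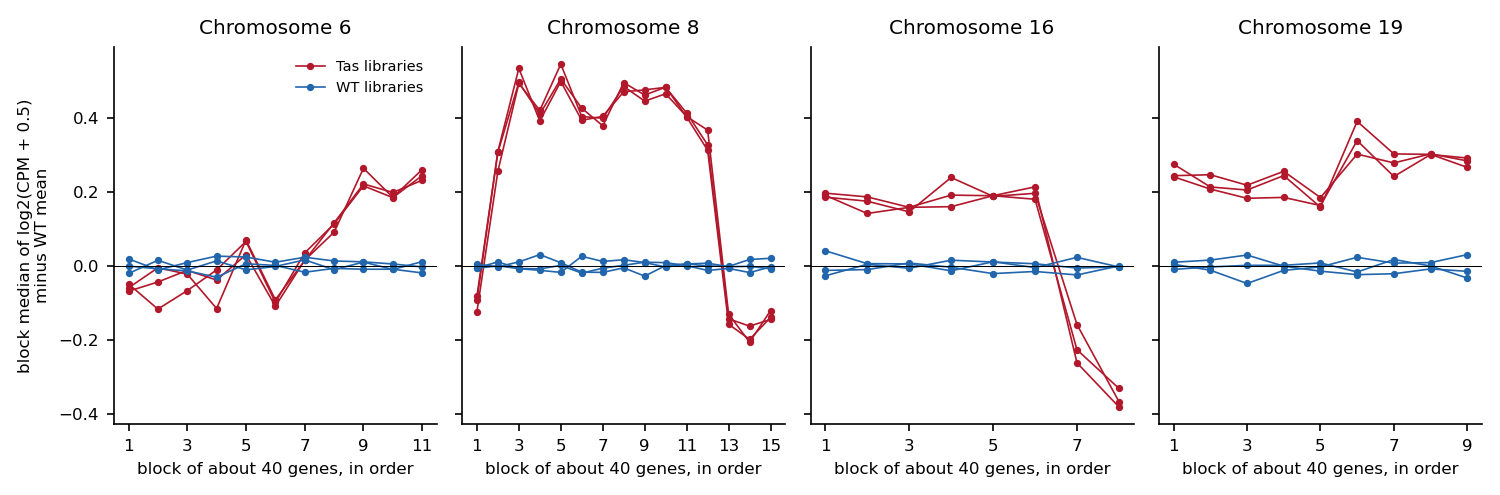
Median difference of each library from the WT mean, on the log2(CPM + 0.5) scale (y axis), in blocks of about 40 neighbouring genes in chromosomal order (x axis) on chromosomes 6, 8, 16 and 19, for the 3 Tas libraries (red) and the 3 WT libraries (blue). The Tas libraries move together in steps, up over blocks 3 to 12 of chromosome 8 and down over blocks 7 and 8 of chromosome 16, and the WT libraries lie near 0 because the values are centred on their mean.

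Outside those chromosomes the raised blocks held clusters of zinc finger and predicted genes. The block with the highest median of all, 0.74, lay on chromosome 4 between Vps13d and Plod1. In it 34 of 40 genes were called higher, among them 17 of 19 Zfp genes and 10 of 11 predicted genes. Zfp990 was at 128, 124 and 130 CPM in Tas and 40.4, 44.3 and 41.1 CPM in WT, a rise of 1.60 ± 0.06. Zfp268, Zfp986 and Zfp993 rose by 1.15 ± 0.05, 1.07 ± 0.06 and 1.06 ± 0.04, and all were higher in every Tas library. A run of 6 neighbouring tested genes there, Platr16, Gm13230, Smarca5-ps, Zfp990, Zfp268 and Gm13231, rose by 2-fold or more without a break. Blocks of chromosomes 2, 12 and 13 with medians of 0.34, 0.28 and 0.35 were also made up mostly of predicted genes. Over the whole genome, 116 of 395 tested Zfp genes were called higher and 70 lower, with a median of 0.06. Reads in such clusters of similar genes may be shared among them. In the Xlr cluster 7 neighbouring tested genes, Pwwp4b and 6 Xlr genes, rose by 2-fold or more in a row, the longest run of rises. Falls of 2-fold or more formed runs of 8 and 5 neighbouring genes on chromosome 14, all of them predicted gene models.

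Among abundant genes with known names, changes were small as fold changes. TPM, the authors' length-corrected level, was 690 in Tas and 421 in WT for Klhl13, an X-linked ubiquitin ligase adaptor gene, which rose by 0.69 ± 0.03. It was 779 in Tas and 524 in WT for the translation factor gene Eif4a2, on chromosome 16, and 1395 in Tas and 1115 in WT for Eef1g, on chromosome 19. Among the losses, the ferritin gene Ftl1 was at 3067 TPM in Tas and 3947 TPM in WT, and the superoxide dismutase gene Sod1, on the lowered end of chromosome 16, was at 1300 TPM in Tas and 1696 TPM in WT. Rpl23a and Rpl24 fell, with log2 fold changes of -0.32 ± 0.03 and -0.46 ± 0.03.

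Against the other null genotypes, Tas had 9447 genes (56.1%) called against MP8 and 9736 (57.8%) called against Pph. By 2-fold or more, Tas was higher than MP8 in 4.37% and lower in 6.12% of tested genes, and higher than Pph in 3.76% and lower in 8.48%. Tas was higher than WT, MP8 and Pph in 1432 genes (8.5%) and lower than all 3 in 1353 (8.03%), and by 2-fold or more in 96 (0.57%) and 234 (1.39%). These comparisons share the Tas libraries. The Xlr genes showed both patterns. Xlr3a, Xlr3b and Xlr5a reached similar or higher levels in MP8, at 41.4, 50.5 and 49.2 CPM, whereas Xlr5c was at 0.344 CPM in MP8 and 0.0713 CPM in Pph and was 5.13 and 7.35 higher in Tas on the log2 scale. Xlr5b was at 0.0367 CPM in MP8 and 0 in Pph. Other genes were higher in Tas than in each of the other 3 groups. Tdpoz6, a single-exon gene of the TD and POZ family, averaged 50.4 ± 1.84 CPM in Tas, 6.23 CPM in MP8, 1.12 CPM in Pph and 7.47 ± 0.138 CPM in WT. Casq2 and Zfp112 were also above the other 3 groups by 2-fold or more. Lower in Tas than in the other 3 were Mid1, Erdr1y, Erdr1x, Asb4, Col1a2, Cd40 and Oasl2.

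Several of the large rises were of a size between or near those of the other null genotypes. Prkg1 averaged 70.1 CPM in Tas, 75.7 CPM in MP8 and 25.5 CPM in Pph, Pcdh15 averaged 76.8 CPM in Tas, 162 CPM in MP8 and 41.8 CPM in Pph, and Nrcam averaged 83.0 CPM in Tas, 141 CPM in MP8 and 51.5 CPM in Pph. For Pcdh15 and Nrcam the Tas level was called below MP8 and above Pph, while for Prkg1 the difference from MP8 was not called and that from Pph was. The trophectoderm keratins differed more, since Krt8 averaged 34.2 CPM in Tas, 54.9 CPM in MP8, 440 CPM in Pph and 47.6 CPM in WT. Klf4 was low in all 3 null genotypes, at 4.63 CPM in Tas, 5.64 CPM in MP8 and 7.25 CPM in Pph. Nr5a2 and Id1 were higher in Tas than in both others, at 110 and 136 CPM in Tas, 49.0 and 69.7 CPM in MP8, and 29.8 and 79.5 CPM in Pph.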

How the data were processed

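Total RNA of mouse embryonic stem cells was sequenced after an Illumina TruSeq preparation, per the labels' protocols. The authors deposited estimated counts and TPM per gene and library, made from their reads with the tools and build that the submitters' processing notes name in no order and with no role: GRCm39, RSEM, DESeq 1.26.0, HISAT2 2.1.0 and FastQC. Of the estimated counts above 0, 32.5% were not whole (tolerance 1e-9). The strand setting of counting is not given in the sources used here. The deposited fold changes and p-values were not used.

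The estimated counts were rounded to whole numbers, filtered with filterByExpr, scaled by TMM and tested with edgeR 4.0.16 (R 4.3.3, limma 3.58.1) by the quasi-likelihood test over all 12 libraries, with group as the only term and 8 residual degrees of freedom. Each comparison's p-values were adjusted over 16840 genes by the Benjamini-Hochberg method. CPM use the scaled library totals, means are ± SD, and the standard error of a log2 fold change is its size divided by the square root of F. Intervals and the floor of 3 counts cover counting error only. Counts of 16229 genes were simulated for Tas against WT. Recovered were 79.1% of 67 changes of 1.5-fold, 95.5% of 67 of 2-fold and 98.5% of 66 of 4-fold, with 11 false calls. Only these genes, all above 1 CPM, were changed, and all others were equal in the 4 groups. In the data 51.8% of tested genes were called, so the 11 false calls do not measure the error among the 8717 called genes. Libraries of 1 genotype differed by more than sampling noise (chi-square per degree of freedom 1.92 to 6.35), so none was taken for a library deposited again. Chromosome, span, exons and biotype came from GENCODE M21 (GRCm38), matched by gene ID for 51884 genes (90.7%), and start-site sequences from RefSeq.

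The members and gene lists were chosen with earlier results of these data known. The text names list members, the 15 largest rises and 12 largest falls at 1 CPM or more, the 10 largest TPM changes each way, up to 4 called members per list with the defining members that were not called, and up to 10 genes per direction that differed from the other 3 groups. Predicted genes were outside this rule. Genes named beyond it, such as Gm43549, Gm38947, Mid1-ps1, Pim2, Nr5a2, Peg10 and zinc finger genes, were chosen after their values were seen. Alternatives were DESeq2 1.42.0, other scalings, no filter, 2 groups only, a replicate block, each library left out, and shifted chromosomes left out.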

Additional observations from a re-analysis of the deposited data

How the results depend on the processing

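The counts of called genes kept within 1.5 times of the values reported under every alternative run. Leaving out 1 library at a time gave 4029 to 4319 genes higher and 3804 to 4144 lower in Tas than in WT, 1095 to 1153 higher and 613 to 634 lower by 2-fold or more. It gave 8673 to 8810 genes called against MP8 and 9013 to 9258 against Pph, 1291 to 1434 genes higher and 1182 to 1332 lower than in all 3 other groups, and a Tasor log2 fold change of -2.01 to -1.96. DESeq2 called 7705 genes, total count scaling 8815, of which 47.8% were higher against 50.6% with TMM, and the fit without a low-count filter 8711. The same replicate numbers did not mark shared deviations (correlations of 0.00367, -0.00856 and -0.000883 between same-numbered Tas and WT libraries), and the fit with a replicate block called 8533 genes. Of 319 genes examined singly, 19 lost their call under some alternative, 2 gained one and 0 changed direction. Of 1508 list counts, 65 moved by over 1.5 times, mostly in lists with few calls or when the genes of chromosomes 6, 8, 16 and 19 were set aside, a choice made after seeing the data. Depth limits the lowest genes, such as Xlr5c and Or8b56, which had 1 count in all in WT.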

Other observations

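The ratio of CPM to TPM gives the effective length that the authors' estimation assigned to a gene in each genotype, which depends on which isoforms the reads were assigned to. Among 12510 coding genes at 1 CPM or more in both genotypes, this length was at least 1.5 times shorter in Tas than in WT in 110 (0.879%). Among 326 of these genes that rose by 2-fold or more in Tas it was 35 (10.7%), and among 247 that fell by 2-fold or more it was 7 (2.83%). Within 1 to 10 CPM the shares were 15.3% of 150 genes that rose by 2-fold or more and 2.21% of all 3399 genes. Reln, which encodes the secreted matrix protein reelin, averaged 6.93 CPM in Tas and 2.53 CPM in WT, with a length ratio of 0.303. Fgf13, an intracellular relative of the fibroblast growth factors, averaged 22.1 CPM in Tas and 4.47 CPM in WT, with a ratio of 0.351. Ntrk2, the receptor gene for BDNF, averaged 18.2 CPM in Tas and 3.35 CPM in WT, with a ratio of 0.387. Tenm4, a teneurin gene, averaged 118 CPM in Tas and 37.8 CPM in WT, with a ratio of 0.463. These genes were picked by hand after their values were seen, from the raised genes with the lowest ratios. Others not described here had lower ratios than Fgf13, among them Gab2 (0.310), Zbtb20 (0.314) and Samd12 (0.325). Which transcripts the reads came from was not tested.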
